A study of Mus musculus with 9 samples.

Results

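The GIMAP and Tmem176 genes lie side by side on mouse chromosome 6, on the same arm as Ezh2 and close to it. The 10 genes described here are Gimap1, Gimap3, Gimap4, Gimap5, Gimap6, Gimap7, Gimap8 and Gimap9 with Tmem176a and Tmem176b. They were taken by gene symbol from a table of 43432 Ensembl genes, and all 10 were found and passed the filter on low counts. The rule for the choice names position and family and no expression value, but earlier results of these data were known when it was made.

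Messenger RNA was sequenced from regulatory T cells (Tregs), CD4 T cells that are marked by Foxp3 and hold immune responses in check. Tregs were sorted from C57BL/6 mice, activated with beads against CD3 and CD28, and grown with IL-2 at 2000 U/ml to day 4. The 4 Ezh2-deficient and the 5 WT libraries all carry Foxp3-Cre-GFP and the reporter R26-LSL-RFP, and the 4 are Ezh2-fl/fl. WT replicate 1 is Ezh2-fl/+, with 1 floxed allele, and WT replicates 2 to 5 are Ezh2-+/+. Cre is driven by Foxp3, so deletion is restricted to cells that have expressed Foxp3, and all 9 libraries carry it. Age is not given in the labels, and the series calls the libraries of a group biological replicates, so p-values measure the spread between these samples.

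GIMAP proteins (GTPases of the immunity-associated protein family) are guanine nucleotide binding proteins found mainly in lymphocytes, where several sit on intracellular membranes. Gimap5 is required for the survival of peripheral T cells in rodents. Tmem176a and Tmem176b encode membrane proteins related to the MS4A family, known from dendritic cells and from some lymphocytes. Ezh2 is the methyltransferase subunit of PRC2, a Polycomb complex that marks silent genes by trimethylating histone H3 lysine 27.

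Total counts were 33718125 to 62201921 in the Ezh2-deficient and 32469450 to 59796319 in the WT libraries. Ezh2 itself was at 153, 167, 164 and 159 CPM (counts relative to the scaled size of the library) in Ezh2-deficient replicates 1 to 4. It was at 268, 332, 288, 234 and 360.3 CPM in WT replicates 1 to 5. The log2 fold change was -0.88 (SE 0.11, adjusted p = 0.000363). The table has 1 value per gene, so transcripts that lack only the floxed exons cannot be told apart from full ones. Of 10 Treg markers all were tested, and Foxp3 was at 1647 to 1968 CPM in the Ezh2-deficient and 1293 to 1542 CPM in the WT libraries. The CD8 T cell gene Cd8a ranged from 0.361 to 79.9 CPM in the Ezh2-deficient and from 1.98 to 97.6 CPM in the WT libraries. A score of 22 hypoxia-response genes divided the libraries into 5 with high values (Ezh2-deficient replicates 1 and 4, WT replicates 1, 2 and 4) and 4 with low values. These are bulk libraries, so a change in the share of cells that express a gene cannot be told apart from a change in RNA per cell.

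The cluster starts 1052 kb beyond the end of Ezh2 (chromosome 6, 47530139 to 47595341, minus strand) and spans 199.8 kb on GRCm38. In chromosome order the genes are Gimap8 (48647234 to 48660875), Gimap9 (48676129 to 48679114), Gimap4 (48684549 to 48692060), Gimap6 (48701582 to 48708225), Gimap7 (48718621 to 48724636), Gimap1 (48739054 to 48743795), Gimap5 (48746197 to 48754210), Gimap3 (48764464 to 48770851), Tmem176b (48833818 to 48841496) and Tmem176a (48840919 to 48847071). A gap of 63 kb separates Gimap3 from Tmem176b. All are protein-coding. Of them, Gimap6, Gimap3 and Tmem176b are read from the minus strand and the other 7 from the plus strand. Tmem176b and Tmem176a point away from each other, and their gene bodies overlap by 578 bp.

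The promoters of the genes that rose most are printed here from RefSeq (GRCm38.p6), as the 250 bases before the annotated start, each 5′ to 3′ on the strand of its gene. For the Tmem176 pair the first listed window of each gene is printed. The capitals mark the 155 bases that both windows share, since their starts lie only 346 bp apart and the genes moved together. RefSeq lists further starts for both genes, for which the distance and the shared stretch differ. For Gimap6 and Gimap3, the members of the GIMAP family with the largest rises, capitals mark the motif matches given below.
Tmem176a promoter (chr6:48841233-48841482, plus strand): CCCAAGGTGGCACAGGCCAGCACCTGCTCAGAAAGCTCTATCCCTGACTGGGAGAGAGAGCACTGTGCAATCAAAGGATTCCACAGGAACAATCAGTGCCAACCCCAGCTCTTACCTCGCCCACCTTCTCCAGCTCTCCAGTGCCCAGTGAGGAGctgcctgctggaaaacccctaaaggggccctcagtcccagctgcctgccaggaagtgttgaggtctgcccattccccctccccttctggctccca
Tmem176b promoter (chr6:48841138-48841387, minus strand): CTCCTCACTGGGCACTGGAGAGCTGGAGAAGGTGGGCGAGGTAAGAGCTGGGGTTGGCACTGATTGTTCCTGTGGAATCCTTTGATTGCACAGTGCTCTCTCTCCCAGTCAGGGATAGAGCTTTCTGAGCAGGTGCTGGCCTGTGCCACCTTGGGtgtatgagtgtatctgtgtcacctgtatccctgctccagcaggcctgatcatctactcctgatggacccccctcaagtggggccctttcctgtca
Gimap6 promoter (chr6:48708245-48708494, minus strand): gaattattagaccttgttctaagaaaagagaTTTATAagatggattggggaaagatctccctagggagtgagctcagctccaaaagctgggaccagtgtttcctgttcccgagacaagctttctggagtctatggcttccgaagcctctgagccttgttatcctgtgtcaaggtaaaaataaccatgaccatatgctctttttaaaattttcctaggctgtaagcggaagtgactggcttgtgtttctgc
Gimap3 promoter (chr6:48770852-48771101, minus strand): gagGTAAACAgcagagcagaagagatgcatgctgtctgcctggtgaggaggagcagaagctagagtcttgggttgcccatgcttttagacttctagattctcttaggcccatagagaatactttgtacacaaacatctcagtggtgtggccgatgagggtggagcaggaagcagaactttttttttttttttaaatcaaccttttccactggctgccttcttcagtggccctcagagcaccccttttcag

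All 10 genes had at least 1 promoter in the RefSeq table, 14 windows in all. The motifs below were searched on both strands, and a match is a description of the letters only. The forkhead motif GTAAACA was in the Gimap3 promoter alone, 241 bases before the start, and in 3.17% of 32851 promoters. TATAAA was in the Gimap6 promoter alone, 214 bases before the start, and in 12.4% of promoters. The RUNX motif TGTGGT was in the promoters of Gimap4, Gimap7 and Gimap1, against 14% of promoters, and of these genes only Gimap4 passed the test of expression given next. The nuclear receptor motif AGGTCA (14% of promoters), the ETS motif CCGGAAG (6.91%) and the KLF motif CCACACCC (3.2%) were in none of the 14 windows.

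The first comparison asked how transcripts of the cluster differ in activated Tregs that lack Ezh2. All 10 genes had a higher mean in Ezh2-deficient Tregs, and 7 of the 10 rose past an adjusted p of 0.05, while 0 fell (0 at an unadjusted p under 0.05, and 0 in DESeq2 and limma-voom). Tmem176b and Tmem176a rose 6.17-fold and 5.74-fold, Gimap6 rose 2.05-fold, and Gimap3, Gimap4, Gimap5 and Gimap8 rose 1.38-fold to 1.62-fold. Gimap7, Gimap9 and Gimap1 did not pass. Of all 13685 genes tested, 13.1% passed upward and 8.80% downward in edgeR's quasi-likelihood test, which is the background against which 7 of 10 stands. The same 7 genes had every Ezh2-deficient library above every WT library, a pattern that 12.5% of all tested genes showed, and 0 had the reverse pattern, shown by 8.69%.

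**Figure D1:**
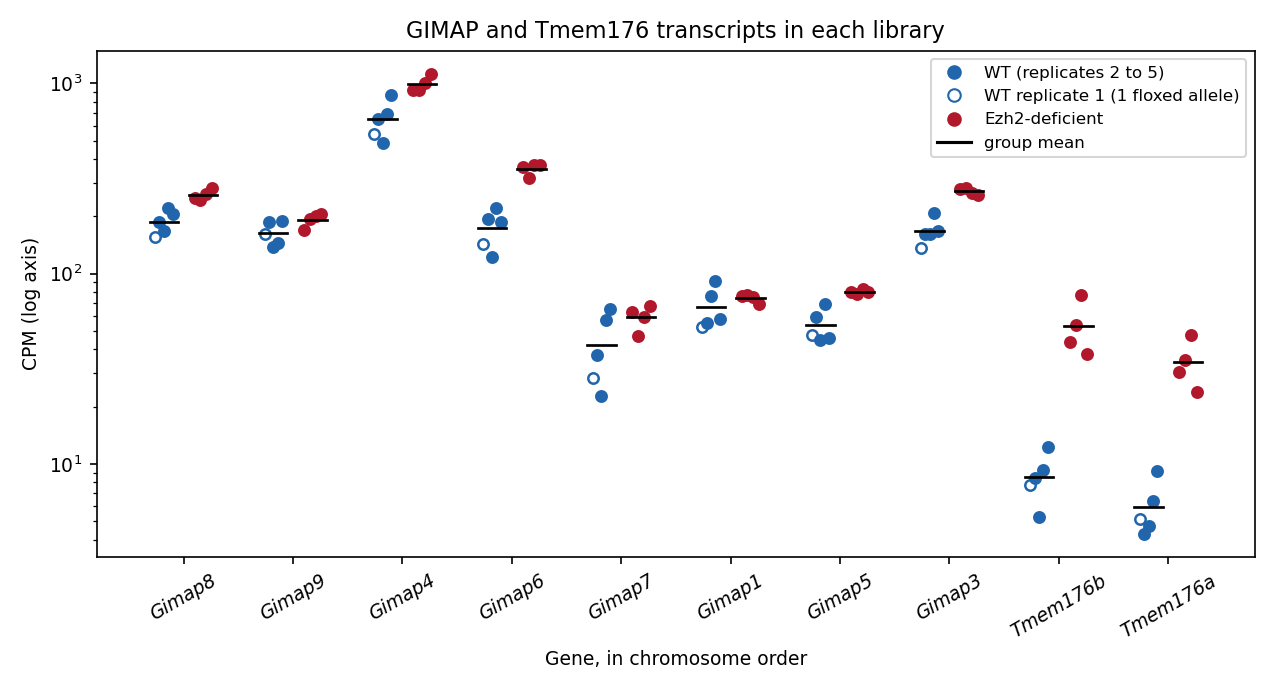
CPM (log axis) of the 10 genes in chromosome order, with 1 point per library and a bar at each group mean; the open points are WT replicate 1, which has 1 floxed allele. The groups are apart for 7 genes and overlap for Gimap9, Gimap7 and Gimap1.

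Tmem176b, which encodes a membrane protein that resembles MS4A proteins, was at 43.6, 53.4, 77.3 and 37.8 CPM in Ezh2-deficient replicates 1 to 4. In WT replicates 1 to 5 it was at 7.73, 8.39, 5.28, 9.23 and 12.2 CPM. The lowest Ezh2-deficient library therefore stood well above the highest WT library. The log2 fold change was 2.63 (SE 0.25, adjusted p = 9.42e-05).

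Tmem176a, its divergent neighbour and the partner protein of Tmem176b, was at 30.3, 35.1, 47.7 and 23.9 CPM in the Ezh2-deficient libraries. The WT libraries were at 5.14, 4.29, 4.71, 6.38 and 9.15 CPM, again without overlap. The log2 fold change was 2.52 (SE 0.25, adjusted p = 8.32e-05). By fold change Tmem176b was number 87 and Tmem176a number 104 of the 1797 genes that rose.

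The pair kept nearly the same proportion in both groups. The ratio of Tmem176a to Tmem176b was 0.65 ± 0.034 (SD, n = 4) in the Ezh2-deficient and 0.702 ± 0.138 (SD, n = 5) in the WT libraries. The difference of -0.09 on the log2 scale was smaller than the spread between libraries (exact permutation test over 126 splits, two-sided p = 0.595, where the smallest p possible is 0.0159). Ezh2-deficient replicate 3 was the highest of its group for both genes and replicate 4 the lowest, and WT replicate 5 was the highest WT library for both. Ezh2-deficient replicate 3 has the lowest hypoxia score of all libraries and Ezh2-deficient replicate 4 the highest. Among the WT libraries, the low-score replicates 3 and 5 were the lowest and the highest for Tmem176b, at 5.28 and 12.2 CPM. With the score as a covariate over all 9 libraries, the log2 fold change was 2.56 (SE 0.23, adjusted p = 5.15e-05) for Tmem176b and 2.46 (SE 0.19, adjusted p = 1.41e-05) for Tmem176a. Within the high-score libraries the log2 fold change was 2.26 for Tmem176b and 2.35 for Tmem176a, and within the low-score libraries 2.86 and 2.54 (adjusted p = 6.01e-05, 0.000321, 0.024 and 0.0195).

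Gimap6, a GIMAP protein linked to autophagy through the ATG8 relative Gabarapl2, rose most within its family. It was at 365, 319, 371 and 371 CPM in Ezh2-deficient replicates 1 to 4 and at 143, 193, 122, 222 and 188 CPM in WT replicates 1 to 5. All Ezh2-deficient libraries were above all WT libraries, and replicate 2 stood below the other 3 of its group. The log2 fold change was 1.04 (SE 0.15, adjusted p = 0.000815).

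Gimap3 and Gimap5 encode closely related proteins with a membrane anchor. Gimap3 was at 278, 280.4, 266 and 258 CPM against 136, 162, 161, 209 and 167 CPM (log2 fold change 0.70, SE 0.10, adjusted p = 0.000826). Gimap5 was at 80.1, 78.6, 83 and 80.1 CPM against 47.6, 59.4, 44.9, 69.4 and 45.8 CPM (log2 fold change 0.59, SE 0.12, adjusted p = 0.00599). Neither gene overlapped between the groups, and WT replicate 4 was the highest WT library for both. The ratio of Gimap3 to Gimap5 was 3.37 ± 0.184 (SD, n = 4) in the Ezh2-deficient and 3.17 ± 0.424 (SD, n = 5) in the WT libraries, ranges that overlap. Of the 50-base words in the Gimap3 transcripts 7.52% also occur in those of Gimap5, so a small part of the reads of either gene may be shared.

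Gimap4, the GIMAP gene with the highest level in both groups and one that promotes T cell death in mice and rats, was at 920.4, 926, 1004 and 1123 CPM in the Ezh2-deficient libraries. It was at 539, 649.8, 486, 691 and 867 CPM in the WT libraries. The groups did not overlap, although WT replicate 5 came close to the lowest Ezh2-deficient library (log2 fold change 0.62, SE 0.15, adjusted p = 0.0118). Within the low-score libraries its log2 fold change of 0.49 did not pass (adjusted p = 0.322), nor did 0.58 once the highest-Cd8a library was dropped from both groups (adjusted p = 0.0547).

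Gimap8, the largest protein of the family with several GTPase domains, was at 250.4, 245, 263 and 280.4 CPM against 156, 187, 168, 221 and 207 CPM. It rose by a log2 fold change of 0.47 (SE 0.10, adjusted p = 0.00728) without overlap between the groups. The call was lost within the high-score libraries (0.49, adjusted p = 0.0585) and within the low-score libraries (0.41, adjusted p = 0.149), each with fewer libraries. The call of Gimap5 was lost within the high-score libraries (0.44, adjusted p = 0.0913) and held within the low-score libraries (0.81, adjusted p = 0.024).

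The other 3 GIMAP genes did not pass the test. Gimap9 was at 170.1, 193, 199.8 and 207 CPM against 161, 187, 138, 145 and 188 CPM. Its log2 fold change was 0.23 (95% interval -0.02 to 0.48, adjusted p = 0.127, unadjusted p = 0.0459 in edgeR's quasi-likelihood test). The intervals given here use 7 degrees of freedom and are wider than that test implies. Gimap7 was at 62.6, 46.9, 59.5 and 67.2 CPM against 28.4, 37.2, 22.8, 56.8 and 65.2 CPM, a log2 fold change of 0.49 (95% interval -0.20 to 1.18, adjusted p = 0.255). Gimap1 was at 76, 77.6, 75.3 and 68.9 CPM against 52.4, 55.1, 75.9, 91.9 and 57.5 CPM, a log2 fold change of 0.16 (95% interval -0.20 to 0.52, adjusted p = 0.47). In each of these genes at least 1 WT library lay within or above the Ezh2-deficient range. For Gimap7 these were WT replicates 4 and 5, and for Gimap1 WT replicates 3 and 4. The interval of Gimap7 takes in 0.59, the log2 fold change of Gimap5, while those of Gimap1 and Gimap9 end below it. All 3 intervals take in 0.47, the log2 fold change of Gimap8, which passed. Differences between genes were not tested.

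The genes differed in how much they varied among WT libraries. Gimap7 spread 2.86-fold from the lowest to the highest WT library, whereas Gimap9 spread 1.37-fold and Gimap8 1.42-fold. In the Ezh2-deficient group the spread was 1.43-fold for Gimap7 and 1.06-fold for Gimap5. The coefficient of variation of every one of the 8 GIMAP genes was lower in the Ezh2-deficient group (2.3 to 14.7%) than in the WT group (14.2 to 43.4%). For Tmem176b it was 32.8% and 29.3%, and for Tmem176a 29.4% and 33%. Outside the 10 genes, Ezh2 (4.03% and 17%) and Gimap1os (3.27% and 18%) also varied less in the Ezh2-deficient group, while Zfp398 (10.4% and 6.79%) varied more. The share of all tested genes that varied less there was not counted, so the pattern is not shown to be particular to the family. The spreads rest on 4 and 5 libraries, with WT replicate 1 of another genotype among the 5, and their difference was not tested.

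Ratios of Gimap6, which had the largest fold change of the family, to the genes with the smallest restate those fold changes library by library and are a description. The ratio of Gimap6 to Gimap9 was 1.65 to 2.14 in the Ezh2-deficient and 0.887 to 1.53 in the WT libraries, and the ratio of Gimap6 to Gimap1 was 4.11 to 5.38 against 1.61 to 3.5. Gimap6 made up 15.6% ± 0.833 (SD, n = 4) of all GIMAP counts in the Ezh2-deficient against 11.5% ± 1.29 (SD, n = 5) in the WT libraries. Gimap4 held 43.4% ± 1.69 and 42.8% ± 3.43 of them, with overlapping ranges. Summed over the 8 genes, the family was at 2167 to 2455 CPM in the Ezh2-deficient and at 1218 to 1786 CPM in the WT libraries.

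Levels can be set against each other only per length, here as CPM per kb of exon. In WT Tregs Gimap4 was the highest at 352 ± 80.8 (SD, n = 5) CPM per kb, above 99.6% of all tested genes. Gimap9 followed at 99.7 ± 14.1 CPM per kb, then Gimap3 (64.8), Gimap8 (50.7) and Gimap6 (49.6), Gimap1 (21.7), Gimap7 (18.1) and Gimap5 (12.9). Tmem176b (3.61 ± 1.06) and Tmem176a (1.56 ± 0.514) were the lowest, above 39.4% and 27.3% of tested genes. Gimap3 exceeded Gimap8 in all 5 WT libraries although their ranges overlap, Gimap8 exceeded Gimap6 in 3 of the 5, and Gimap1 exceeded Gimap7 in 4 of the 5.

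The order of the means changed at 3 places in Ezh2-deficient Tregs. Gimap6, at 102 ± 7.18 (SD, n = 4) CPM per kb, moved above Gimap8 (70.2 ± 4.23) in 4 of 4 libraries and its range overlapped that of Gimap3 (105 ± 4.17). Gimap7 (25.4) stood above Gimap1 (24.2) in 3 of the 4. Tmem176b reached 22.4 ± 7.34 CPM per kb, above Gimap5 (19.4 ± 0.445) in 2 of the 4 libraries only, and its range overlapped those of Gimap1 and Gimap5. Tmem176a stayed the lowest at 8.99 ± 2.65 CPM per kb.

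**Figure D2:**
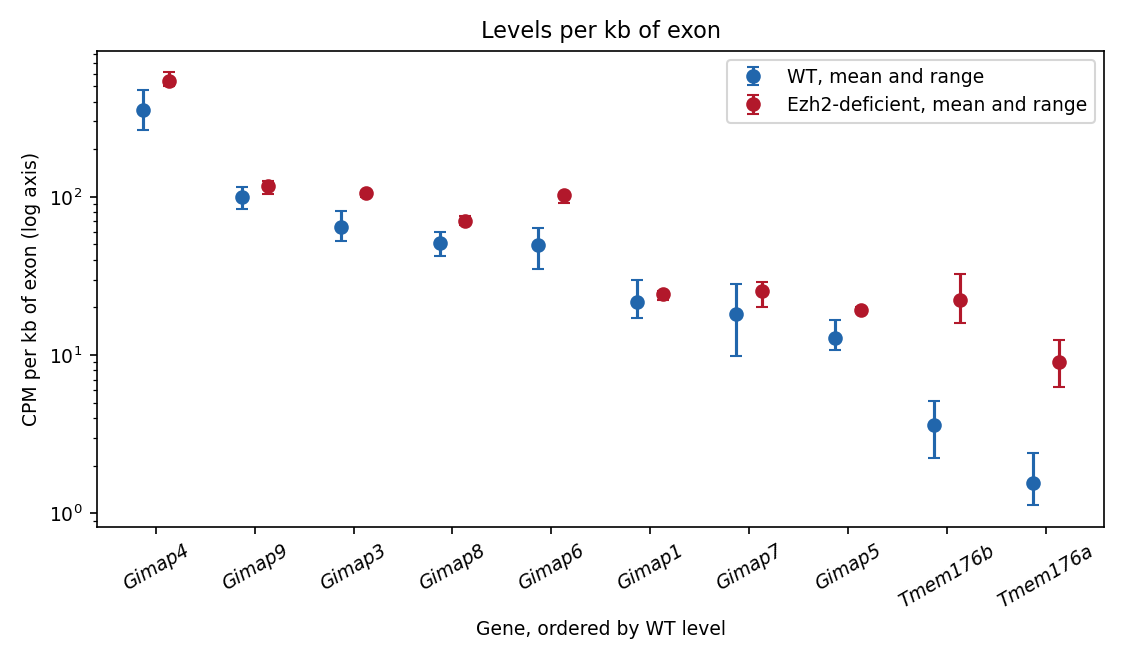
Mean level per kb of exon (CPM per kb, log axis) of the 10 genes, ordered by the WT mean, with bars from the lowest to the highest library of each group. Gimap4 leads in both groups at 352 and 541 CPM per kb, and the Tmem176 pair is lowest in WT Tregs.

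WT replicate 1, with 1 floxed and 1 wild-type Ezh2 allele, did not lie between the groups. It lay below every Ezh2-deficient library for all 10 genes, within the range of the other 4 WT libraries for 7, and below all 4 of them for Gimap8, Gimap1 and Gimap3. Its place below the Ezh2-deficient libraries was already given for the genes whose groups do not overlap, since it is 1 of the 5 WT libraries. Only Gimap9, Gimap7 and Gimap1 could have differed. In 16.6% of all tested genes WT replicate 1 was the lowest of the 5 WT libraries. Gimap3 was at 136 CPM there against 161 to 209 CPM in the other 4, and Tmem176b was at 7.73 CPM against 5.28 to 12.2 CPM.

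A fit with 1 term for each number of floxed alleles gave the same picture. Of the 10 genes, 0 passed between 1 and 0 floxed alleles in edgeR's quasi-likelihood test, where all log2 differences were negative (-0.68 for Gimap7 to -0.03 for Gimap9) and 1 gene, Gimap3, had an unadjusted p under 0.05 (-0.36, adjusted p = 1). DESeq2 and limma-voom also called 0. This genotype has 1 library, which is assumed to vary like the others. Across all genes tested 0.00731% passed, a single gene, namely Creb5, which also lies on chromosome 6 and had 173 counts in WT replicate 1 against 0, 0, 0 and 1 in WT replicates 2 to 5 and 813 to 1456 in the Ezh2-deficient libraries. Between 2 and 0 floxed alleles, with 4 libraries on each side, 7 of the 10 genes passed, against 12.1% of all genes tested upward. They included Tmem176b (log2 fold change 2.59, adjusted p = 0.00055), Gimap6 (0.98, adjusted p = 0.00224) and Gimap8 (0.41, adjusted p = 0.014). Without Ezh2-deficient replicate 3 this count was 4, in a fit for which the share over all genes was not taken.

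The genes around the cluster were read in the same fit. Within 2 Mb of Ezh2, 25 other genes were tested, of which 3 rose and 4 fell (28% called, against 21.9% of all genes tested). Of all 13685 genes tested 13.1% rose and 8.80% fell, and at an unadjusted p under 0.05 in edgeR 2698 rose and 2371 fell. Between Ezh2 and Gimap8, 13 of 16 genes had a lower mean, 4 fell and 0 rose (0 rises and 6 falls at an unadjusted p under 0.05 in edgeR), with a median log2 fold change of -0.27. The 4 were Pdia4, an endoplasmic reticulum disulfide isomerase (-0.36, adjusted p = 0.00822), and the zinc finger genes Zfp282 (-0.43, adjusted p = 0.0299), Zfp212 (-0.31, adjusted p = 0.0307) and Zfp746 (-0.30, adjusted p = 0.0233). The count of falls was 0 within the high-score and within the low-score libraries, 1 without the highest Cd8a library of each group, and 2 without WT replicate 4.

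Beyond Tmem176a, 6 genes were tested and 1 rose (3 rises and 0 falls at an unadjusted p under 0.05 in edgeR). It was Igf2bp3, which encodes an RNA-binding protein of fetal cells, at 51.8, 44, 52.6 and 45.3 CPM in the Ezh2-deficient against 12.4, 13.1, 15.2, 24.6 and 24.9 CPM in the WT libraries. The groups did not overlap (log2 fold change 1.42, SE 0.21, adjusted p = 0.000995). The other genes that rose lie inside the cluster. Gimap1os, an antisense transcript of Gimap1, was at 19.1 to 20.5 CPM against 8.35 to 12.2 CPM (log2 fold change 0.95, SE 0.13, adjusted p = 0.000582).

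Gm28053, a predicted gene that runs from Gimap7 to Gimap5 and shares exons with them, was at 0.301 to 0.502 CPM against 0.0169 to 0.143 CPM (log2 fold change 2.34, adjusted p = 0.0108). It rests on 10 to 30 counts per Ezh2-deficient and 1 to 7 counts per WT library. Gimap1os overlaps 36% of the exon bases of Gimap1 on the opposite strand. Whether the counting used strand is not given in the sources at hand, and reads of Gimap1 and Gimap1os may not be fully separated. Gm28053 overlaps 3.48% of the exon bases of Gimap7, 6.44% of those of Gimap1 and 3.69% of those of Gimap5, and Tmem176a and Tmem176b share 81 exon bases on opposite strands.

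Wider windows include these 25 genes. Within 5 Mb of Ezh2 4 of 38 tested genes rose and 4 fell, within 10 Mb 19 of 129 rose and 6 fell, and on the rest of chromosome 6 69 of 515 rose and 50 fell, so that 21.1%, 19.4% and 23.1% were called, against 21.9% of all genes tested. These windows leave out Ezh2 and the 10 genes.

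**Figure D3:**
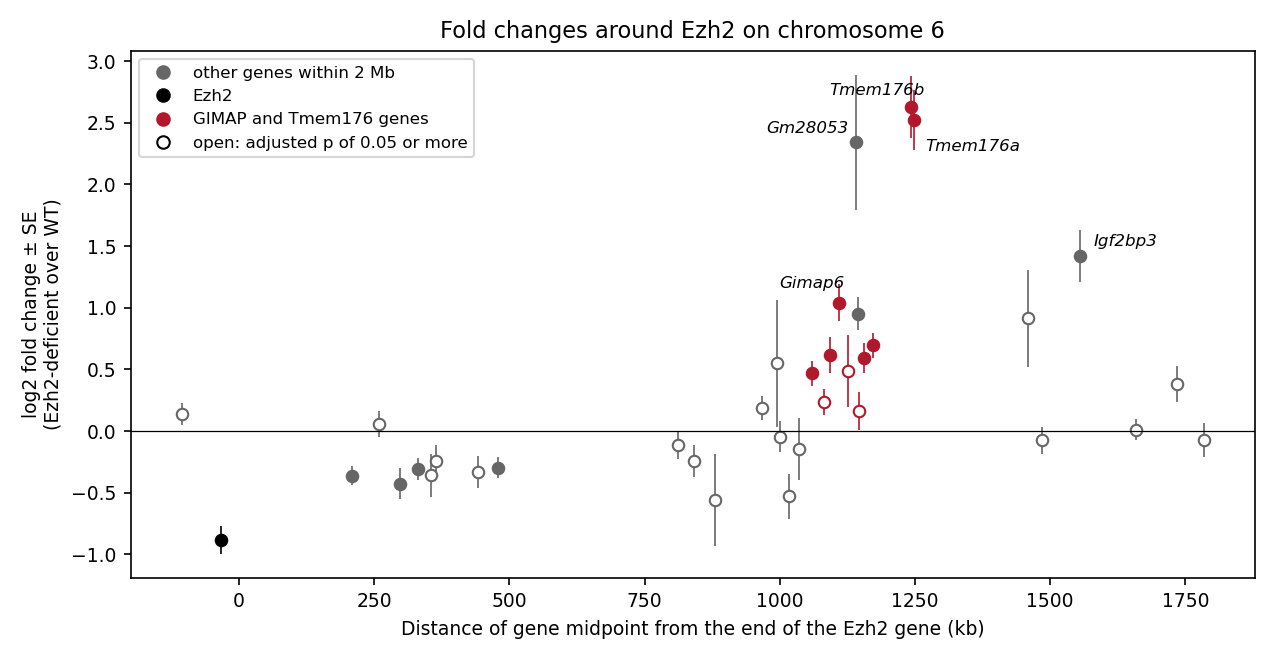
Log2 fold change (Ezh2-deficient over WT, with SE) against the distance of each gene's midpoint from the end of Ezh2 in kb, for the 10 genes, Ezh2 and the 25 other tested genes within 2 Mb; filled points have an adjusted p under 0.05. Genes between Ezh2 and Gimap8 lie mostly below 0, and the cluster lies above it.

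Genes linked by function to the cluster were read in the same fit. Of 19 tested partners and survival genes, 5 rose and 2 fell (median log2 fold change 0.23, against 0.00 over all genes tested). For this and the following lists, the shares of all tested genes that rose and fell are 13.1% and 8.80%. Bcl2l11, which encodes the death-promoting protein Bim, rose by 1.76 (adjusted p = 3.45e-05), and Pmaip1, which encodes Noxa, by 0.75 (adjusted p = 0.00277). Bcl2, a survival factor that binds GIMAP proteins, rose by 0.70 (adjusted p = 0.0162), and Bid, a death-promoting BH3 gene, fell by 0.60 (adjusted p = 0.0114).

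Genes of quiescent and recirculating T cells rose for 5 and fell for 1 of 20 (median 0.26). The antiproliferative gene Btg1 rose by 0.91 (adjusted p = 0.00115), Lef1 by 0.50 (adjusted p = 0.00418) and Foxo3 by 0.41 (adjusted p = 0.00787). Klf2, a factor that keeps T cells quiescent, was at 101 to 139 CPM against 105 to 188 CPM (log2 fold change -0.24, adjusted p = 0.288).

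Of 15 tested genes of the T helper 17 program 1 rose and 4 fell (median -0.04). Ccr6, which encodes a chemokine receptor, fell by 2.40 (adjusted p = 0.00248) and Irf4 by 0.92 (adjusted p = 0.00404), and the tetraspanin gene Cd9 rose by 0.89 (adjusted p = 0.000271). Of 17 relatives of the pair in the MS4A family 8 were tested, of which 5 rose and 0 fell (6 and 0 at an unadjusted p under 0.05 in edgeR, median 1.23), among them Ms4a4b (1.89, adjusted p = 0.00534), Ms4a6b (1.27, adjusted p = 0.000372), Ms4a6c (0.90, adjusted p = 0.00145) and Ms4a6d (1.49, adjusted p = 0.00547). Of 12 PRC2 subunits 0 rose (2 at an unadjusted p under 0.05 in edgeR) and 2 fell, Ezh2 and Rbbp7 (-0.32, adjusted p = 0.0168).

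Markers of other cells that express these genes were counted beside them. Of 20 myeloid and dendritic cell markers 8 were tested, 2 rose and 0 fell (2 and 1 at an unadjusted p under 0.05 in edgeR), and their summed level was 89.6 to 113 CPM in the Ezh2-deficient and 79.7 to 106 CPM in the WT libraries. Most of this came from Cst3, at 59.7 to 78.5 and 59.6 to 81.7 CPM, so the sums say little about the other markers. The 2 were Itgam (0.80, adjusted p = 0.00817) and Adgre1 (1.75, adjusted p = 0.00515). The defining genes Lyz2 and Csf1r were at or near 0, with at most 0.113 and 0.13 CPM in any library, and Clec9a had 0 counts in all 9. Of 8 endothelial markers 2 were tested and neither passed (1 fell at an unadjusted p under 0.05 in edgeR), with Cldn5 and Tie1 at 0 counts in all 9 libraries. Their sums were 198 to 247 and 167 to 220.5 CPM, nearly all from Pecam1, which T cells also express.

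Of 7 tested B cell markers 0 rose (0 at an unadjusted p under 0.05 in edgeR) and 1, Cd79a, fell (-1.38, adjusted p = 0.00716), with sums of 15.3 to 26.8 and 22.7 to 25.6 CPM. Cd79b, at 11.1 to 13.6 and 10.4 to 12.1 CPM, was the largest part of these sums. Of 8 tested CD8 T cell and NK cell markers 1, Crtam, rose (1.95, adjusted p = 0.0199), with sums of 31.2 to 218 and 38.8 to 196 CPM. Of 6 tested markers of γδ T cells and innate lymphoid cells 4 rose and 1, Blk, fell (-1.94, adjusted p = 0.0463), with sums of 113 to 267 and 33 to 82.5 CPM. The 4 were Kit (2.17), Tcrg-C1 (2.42), Tcrg-C2 (2.10) and Tcrg-C4 (1.46), with adjusted p from 6.47e-05 to 0.00978. Sox13 and Zbtb16 were too low to be tested and Ncr1 had 0 counts in all 9 libraries. Kit, at 62.3 to 168 and 13.6 to 49.5 CPM, had the highest mean of these markers in both groups and weighs most in their sums. Blk was near the floor, at 0 to 0.271 and 0.299 to 0.803 CPM. Of the 10 Treg markers 2 rose, Foxp3 (0.30, adjusted p = 0.0313) and Il2rb (0.60, adjusted p = 0.0013), and 2 fell, Tigit (-1.14, adjusted p = 0.0254) and Ikzf4 (-0.41, adjusted p = 0.00539). The part of these markers in the levels of the cluster was not tested.

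To see which genes varied with the cluster apart from the group difference, log2 CPM minus the group mean was correlated over the 9 libraries, for 10906 genes. This is a ranking without a test, and all libraries enter every value. Among the 5 closest to Tmem176b were Tnfsf4, the gene of OX40 ligand (Pearson r = 0.95), Gpnmb, which lies on the far side of Tmem176a (0.95), Vps33a (0.94) and Ncam2 (0.94). Of these 4, Tnfsf4 also rose between the groups (log2 fold change 2.36, adjusted p = 2e-05). Closest to the mean of the 8 GIMAP genes were Gimap1os (0.97), Reep1 (0.97), Cst7, which encodes cystatin F (0.96), Abcc3 (0.94) and Itpripl1 (0.94), of which only Gimap1os passed the test between the groups. Reep1 also lies on chromosome 6. The GIMAP mean deviated by only -0.07 to 0.06 in the Ezh2-deficient libraries against -0.26 to 0.30 in the WT libraries, so the WT libraries weigh most in these correlations. Gimap1os overlaps Gimap1, which is part of the mean, and their reads may not be fully separated.

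**Figure D4:**
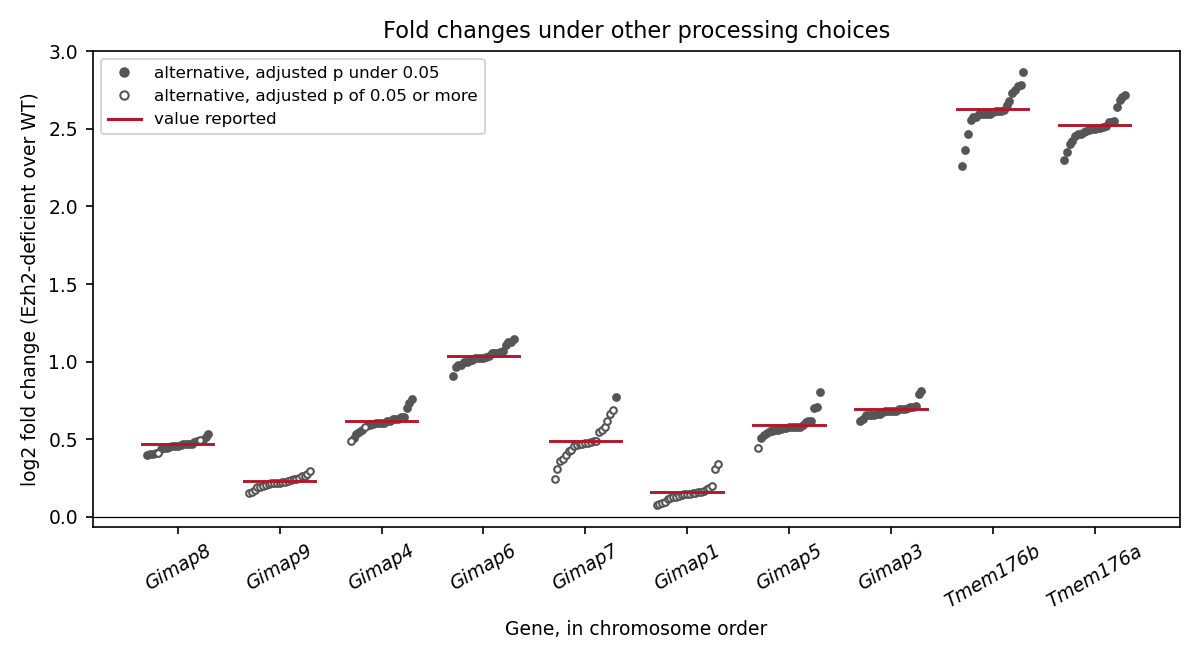
Log2 fold change (Ezh2-deficient over WT) of each of the 10 genes under 23 other processing choices, 1 point each, with a line at the value reported; filled points have an adjusted p under 0.05. The Tmem176 pair, Gimap6 and Gimap3 passed in all 23, and all values of all genes were above 0.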

How the data were processed

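RNA was measured by stranded mRNA sequencing of 9 libraries. The deposited values are raw counts per Ensembl gene. The submitters' processing notes name STAR and GRCm38, while no source used here gives the program that counted reads, whether it used strand, or the gene annotation. Of 43432 gene IDs, 42462 were found in GENCODE M21, which gave symbols and positions. Total counts were 32469450 to 62201921 per library, and no pair of libraries, within or across groups, agreed within counting noise (lowest chi-square per degree of freedom over all pairs 21.9).

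Counts were filtered with filterByExpr (13685 genes kept), scaled by TMM and tested with the robust quasi-likelihood F-test of edgeR 4.0.16 (R 4.3.3), two-sided, with Benjamini-Hochberg adjustment over all genes tested and a threshold of 0.05. CPM are counts relative to the scaled library size. A standard error is the absolute log2 fold change over the square root of F, and the 95% intervals use 7 degrees of freedom. These intervals are wider than the test implies, so one can span 0 where the unadjusted p is under 0.05. A further fit had 1 term for each number of floxed alleles. Promoters came from RefSeq (GRCm38.p6).

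All 10 genes are named with every value. Among genes within 2 Mb of Ezh2, those past the threshold are named, and of each list up to 4 past it with the smallest adjusted p, plus Klf2, Bcl2, Cd8a, Lyz2, Csf1r and Ezh2. Other markers (Clec9a, Cst3, Cd79b, Cldn5, Tie1, Ncr1, Pecam1, Sox13 and Zbtb16) and Creb5 were named after their values were seen. Some genes that this rule takes in are not reported here. The genes and lists were chosen with earlier results of these data known. Alternatives were other scalings and filters, DESeq2 1.42.0, limma 3.58.1 (voom), a replicate block, the hypoxia score as covariate or split, a numeric term for floxed alleles, and each library left out. A sex covariate and dropping the highest-Cd8a library from both groups were chosen after seeing the data.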

Additional observations from a re-analysis of the deposited data

Results flagged for a closer look

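Gimap6 in Ezh2-deficient replicate 2, at 319 CPM, stood apart from the other 3 libraries of its group, which were at 365 to 371 CPM. The gap to the nearest of them was 0.88 of the whole range of the group, above Dixon's critical value of 0.829 for 4 samples. It was the only library that stood apart in this way among 20 groups of values checked, and chance gives about 1 such case in 20. The library still lay above all WT libraries.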

How the results depend on the processing

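Over 23 alternatives, Tmem176a, Tmem176b, Gimap6 and Gimap3 passed in 23, Gimap5 in 22, Gimap4 and Gimap8 in 21, Gimap7 in 1, and Gimap9 and Gimap1 in 0, and no log2 fold change turned negative. Of the 10 genes, 5 passed within the high-score and 5 within the low-score libraries, and 6 without the highest Cd8a library of each group. Over all genes, DESeq2 called 1868 lower. The high-score libraries gave 1067 higher and 697 lower, with 0 lower within 2 Mb of Ezh2, and the low-score libraries 424 higher and 146 lower, with 1 higher and 0 lower within 2 Mb. Without the highest Cd8a library of each group 1343 genes were higher and 663 lower, with 1 lower within 2 Mb. These subsets hold fewer libraries, and the cause of the other changes was not tested. With 1 library left out in turn, the cluster gave 7 to 7 higher and 0 to 0 lower, all genes 1170 to 1744 higher and 802 to 1477 lower (both lowest without Ezh2-deficient replicate 3), and genes within 2 Mb 3 to 4 higher and 2 to 6 lower. The comparison of 2 with 0 floxed alleles gave 4 to 7 of the 10 genes. The numeric term and the score subsets were not run for the floxed-allele counts. Replicate numbers did not pair the samples (correlations of 0.15, -0.083, 0.11 and 0.19). With them as a replicate block 8 of the 10 genes passed, Gimap7 added (0.77, adjusted p = 0.0251 in edgeR), and all genes gave 1635 higher and 1116 lower. Gm28053 rests on few counts, which limits its precision.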
